A study of Mus musculus with 18 samples.

Results

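A set of 10 transcription factor genes of lung epithelial identity was examined: Grhl1, Grhl2, Ehf, Elf3, Foxa1, Foxa2, Klf5, Sox2, Sox9 and Nkx2-1. They are 10 of 21887 protein-coding genes in the RefSeq annotation of GRCm38.p6, the build also called mm10. A peak was counted at a gene when it overlapped the gene's annotated span or the 10 kb on either side, whatever its score. This gave 42 of the 55642 peaks in the deposited lists. Merged within each cell population they formed 28 regions, and merged over all libraries they formed 25 sites, at 9 of the 10 genes.

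The lists come from ATAC-seq, in which a transposase cuts accessible DNA, of adult c57/bl6 mice aged 6 to 12 weeks. Lung cells lacking CD31 and CD45 and carrying Epcam and Sca-1 were sorted by surface CD24 into a negative fraction (CD24neg), a low fraction (CD24low) and a high fraction (CD24high), with 10000 cells to a library. The mice received an inhibitor of G9a (G9ai), a methyltransferase for lysine 9 of histone H3, or vehicle; the labels name neither the compound nor its dose and duration. Of the 18 samples in the labels, 10 were analysed: 2 G9ai libraries of each population, 2 vehicle libraries of CD24low, and 1 vehicle library each of CD24neg and CD24high.

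The transcription factors belong to several families. Grainyhead-like factors (Grhl1, Grhl2) and epithelial ETS factors (Ehf, Elf3) maintain epithelial gene programmes such as cell adhesion and barrier genes. FoxA factors bind their sites in closed chromatin and, with Nkx2-1, the homeodomain factor that marks the lung lineage, act at secretory and surfactant genes. Klf5 is a zinc finger factor of proliferating and maturing epithelium, Sox2 marks proximal airway and Sox9 the distal tips of the developing lung.

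Before any value is read, the lists themselves set a limit. They held 2552 to 12985 peaks, and 98.2% to 99.6% of the peaks of a list with a replicate overlapped the replicate list, against 0.177% to 3.62% that overlapped the opposite arm of the same population. Nearly all listed peaks were thus specific to an arm, and a gene without a listed peak may have been accessible in both arms. Agreement between replicates is a property of the lists and gives no measure of the error between mice. No read counts come with them, so depth is unknown. A region was called G9ai-only when every G9ai library and no vehicle library of the population had a peak in it, and vehicle-only in the opposite case. All 28 regions fell into these classes, 12 as G9ai-only and 16 as vehicle-only. No p-value is given between arms. The smallest two-sided p of 2 against 2 libraries is 0.333, and the other populations have 1 vehicle library. The examined genes and the further gene lists below were chosen with earlier results of these data known. No p-value is therefore given for them against all protein-coding genes either. In sorted populations, a change in the mix of cells and a change of accessibility within a cell cannot be told apart.

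Among the 6 genes in the RefSeq promoter table (Grhl1, Elf3, Foxa1, Foxa2, Sox2 and Nkx2-1), listed peaks reached a transcription start at Sox2 and Foxa2, both in CD24neg cells of the G9ai arm, and the sequences at these starts are shown because they are the places where a listed peak covers a promoter. Each is the RefSeq window from 250 bases before to 50 bases after the start in GRCm38.p6, written 5′ to 3′ on the gene's strand. Capitals mark the bases under the union of the listed peaks. The Sox2 window is chr3:34649745-34650044 on the plus strand, and the Foxa2 window is chr2:148046920-148047219 on the minus strand.
Sox2: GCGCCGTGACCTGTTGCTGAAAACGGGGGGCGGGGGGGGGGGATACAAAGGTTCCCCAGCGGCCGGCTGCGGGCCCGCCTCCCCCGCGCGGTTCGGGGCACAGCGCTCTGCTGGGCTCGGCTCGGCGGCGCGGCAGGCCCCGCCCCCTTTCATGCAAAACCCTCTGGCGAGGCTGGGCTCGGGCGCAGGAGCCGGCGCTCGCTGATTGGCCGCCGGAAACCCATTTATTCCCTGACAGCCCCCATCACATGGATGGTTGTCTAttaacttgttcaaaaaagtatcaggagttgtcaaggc
Foxa2: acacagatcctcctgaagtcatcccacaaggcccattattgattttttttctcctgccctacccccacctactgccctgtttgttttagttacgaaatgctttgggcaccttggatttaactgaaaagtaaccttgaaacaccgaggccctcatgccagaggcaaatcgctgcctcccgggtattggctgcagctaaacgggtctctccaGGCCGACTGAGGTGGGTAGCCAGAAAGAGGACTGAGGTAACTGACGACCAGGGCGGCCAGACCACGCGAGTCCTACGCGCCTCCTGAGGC

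At Sox2 the peak of replicate 3 alone covered 263 of the 300 bases, and the replicate 2 peak ended before the window. At Foxa2 the peaks of both replicates lay over the window. Their union covered 90 of the 300 bases, and the covered stretch holds the start itself. The Sox2 window had a GC content of 66.3% and the Foxa2 window 54.3%, beside a median of 52.7% over 32851 promoter windows. A set of 8 short motifs were searched on both strands of both windows. The GC box GGGCGG, the core of SP and KLF family sites, matched in both windows (35.7% of all windows hold it). At Sox2 it began at positions -223 on the gene's strand and -111 on the other strand, and at Foxa2 at position 10, all under the peak. The CCAAT letters matched at -46 in Sox2, under the peak, and at -68 in Foxa2, outside it (37.4% of all windows). The ETS core CCGGAA matched in the Sox2 window at -38 (14.9% of all windows). Neither window held the core promoter letters TATAAA (13.6% of all windows), the forkhead letters TGTTTNC (20.5%), the Grainyhead letters AACCNG (39.4%), the SOX letters CATTGT (12.6%) or the NKX2 letters CAAGTG (13.6%). A match is a run of letters and no evidence of binding.

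Regions at the 10 genes were spread unevenly over the populations. In CD24neg cells, 5 of the 10 genes held a G9ai-only region (Grhl2, Ehf, Foxa2, Sox2 and Nkx2-1), where 14.9% of all protein-coding genes did, and 3 held a vehicle-only region (Grhl2, Elf3 and Klf5), beside 26.8% of all. In CD24high cells, 3 held a G9ai-only region (Ehf, Elf3 and Klf5), beside 11.3% of all, and 7 a vehicle-only region (Grhl1, Grhl2, Ehf, Elf3, Foxa1, Sox2 and Nkx2-1), beside 35.6%. In CD24low cells, 2 held a G9ai-only region (Foxa2 and Klf5), close to the 22.4% of all genes, and 2 a vehicle-only region (Foxa1 and Nkx2-1), beside 10.8%. With 10 genes, each gene moves these shares by 10 percentage points. The 7 genes with a CD24high vehicle-only region became 4 with the gene span plus 1000 bp and 3 with the higher-scoring 50% of each list, and the latter took the 5 genes with a CD24neg G9ai-only region to 1. The shares of all protein-coding genes under these settings are not given. These lower counts therefore cannot be set against the 35.6% and 14.9% above. In any population and arm 9 of the 10 genes held a region, against 57.1% of all protein-coding genes. Because the 10 genes were chosen with earlier results of these data known, their shares were not tested against those of all genes.

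**Figure D1:**
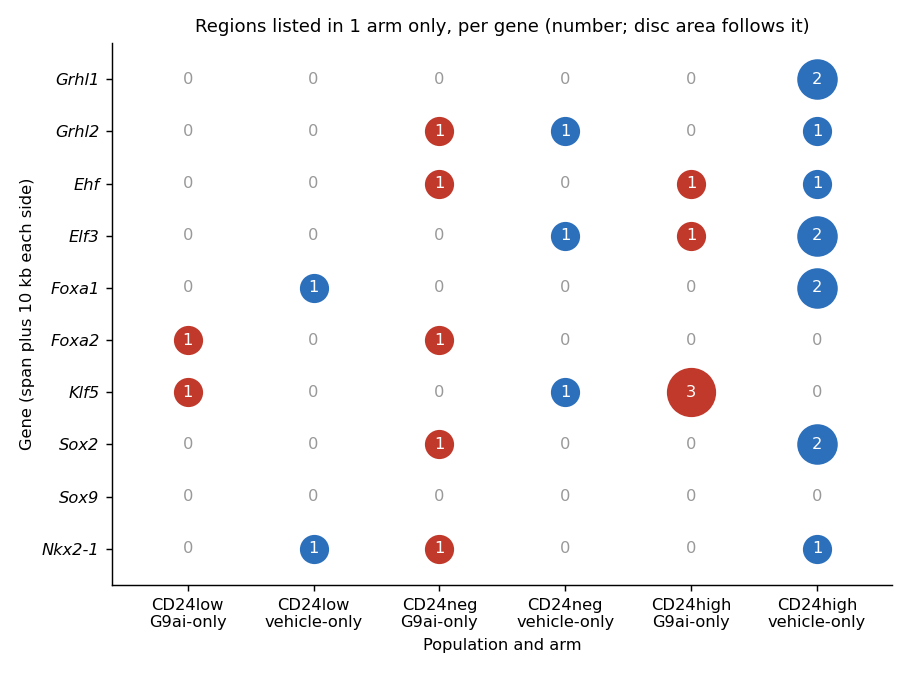
Number of regions at each of the 10 genes (rows) that were listed in 1 arm only, by population and arm (columns); red discs are G9ai-only, blue discs vehicle-only, and disc area follows the number. Klf5 held the most regions, 3 of its 5 being G9ai-only in CD24high, and Sox9 held none.

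The 10 windows had a median of 26.5 kb against 37.2 kb over all protein-coding genes, with those of Grhl1, Grhl2 and Ehf longer than the latter, so the counts were also taken per length of window. In CD24neg the 10 genes held 1.09 G9ai-only regions per 100 kb against 0.269 over all protein-coding genes, and 0.652 vehicle-only regions against 0.585. In CD24high they held 1.09 G9ai-only regions per 100 kb against 0.195, and 2.39 vehicle-only regions against 0.863. In CD24low the densities were 0.435 for either kind, against 0.462 for G9ai-only and 0.179 for vehicle-only regions. The member densities rest on 2 to 11 regions each. With the higher-scoring 50% of every list, the CD24neg G9ai-only regions went from 5 to 1, at Ehf, and the CD24high vehicle-only regions from 11 to 5. The densities over all genes under that setting are not given.

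**Figure D2:**
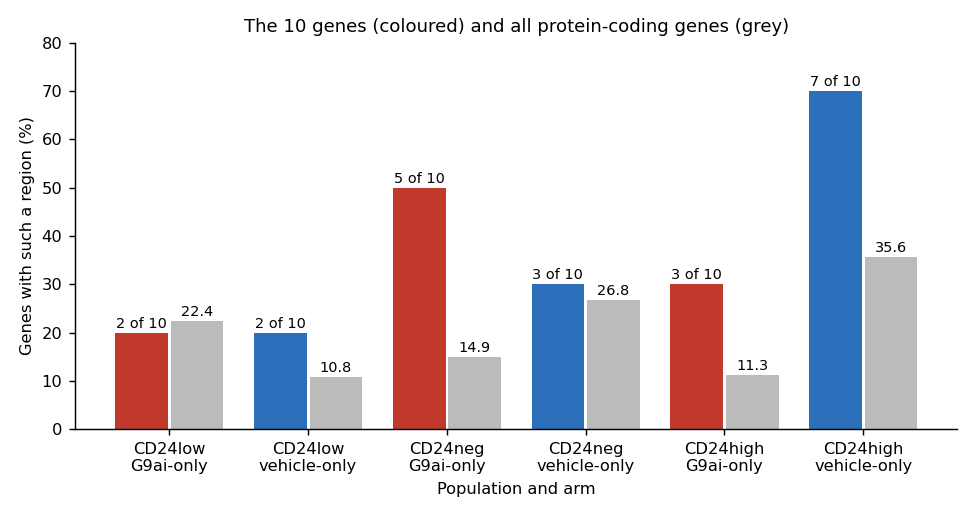
Share of genes with a region of each kind, in percent, for the 10 genes (coloured bars, with the number of genes above) and for all 21887 protein-coding genes (grey bars, with the percentage above). The coloured bar stands above the grey bar in all sets but CD24low G9ai-only, with 5 of 10 against 14.9% in CD24neg G9ai-only and 7 of 10 against 35.6% in CD24high vehicle-only.

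Within the 10 kb window, Grhl1 held regions in vehicle-treated CD24high cells and in no other set. Both lay inside the gene on chromosome 12 (span 24572232 to 24617391, plus strand). The stronger, at 24592070 to 24592268, had a score of 258 and stood at percentile 96.9 of its list. The other, at 24587559 to 24587741, had a score of 102, at percentile 51.6. They lay 11351 and 6840 bp from the nearest RefSeq start of the gene, at 24580719. Both come from 1 library.

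Grhl2, which activates Cdh1 and other junction genes, held 3 regions, all inside its span on chromosome 15 (37232821 to 37363569). The G9ai-only region of CD24neg lay at 37243128 to 37243387, 10307 bp from the lower-coordinate end. Its peak scored 91 in replicate 2 (percentile 69.5) and 59 in replicate 3 (percentile 17.7), so its rank differed widely between the replicates. CD24neg also had a vehicle-only region there, at 37318119 to 37318236, with a score of 148 (percentile 86.7). Grhl2 was thus the 1 gene of the 10 with regions of both kinds in CD24neg, as 7.15% of all protein-coding genes were. The CD24high vehicle-only region, at 37268298 to 37268450, scored 86 (percentile 37.8).

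Ehf, an ETS factor of differentiated epithelium, had G9ai-only regions in CD24neg and in CD24high, at different places inside the gene on chromosome 2 (103263431 to 103303275). The CD24neg region, at 103274857 to 103275147, scored 155 in replicate 2 and 129 in replicate 3 (percentiles 96.1 and 82.6), high in both lists. The CD24high region, at 103285688 to 103285794, scored 62 and 58 (percentiles 21 and 17.2), low in both. A vehicle-only region of CD24high lay 2518 bp beyond the higher-coordinate end, at 103305793 to 103306120, with a score of 261 (percentile 97.1), the highest rank of the 11 CD24high vehicle-only regions.

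Elf3, the related ETS factor, carried regions on both flanks and none within its span on chromosome 1 (135253574 to 135258472, minus strand). The G9ai-only region of CD24high lay 2629 bp beyond the downstream end, at 135250814 to 135250945, and scored 177 in replicate 2 and 169 in replicate 3 (percentiles 94.8 and 94.1). These replicates differed in rank by 0.782 percentile points, where the median over 2648 CD24high G9ai-only regions was 21.9. On the upstream side 1 site was vehicle-only in both CD24neg and CD24high. Its CD24neg peak, at 135261014 to 135261184 and 2542 bp from the start, scored 142 (percentile 83.9), and its CD24high peak, at 135261034 to 135261176, scored 164 (percentile 83.4). That site is nearer to the neighbouring gene Rnpep, 1515 bp away, which encodes an aminopeptidase. A further CD24high vehicle-only region, at 135268136 to 135268369 (score 145, percentile 76.3), lay 9664 bp upstream and within Rnpep. Ehf and Elf3 were the 2 genes of the 10 with both kinds of region in CD24high, beside 6.7% of all protein-coding genes; in CD24low no member had both kinds (4.43% of all genes did).

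Within the 10 kb window, Foxa1 had vehicle-only regions and no G9ai-only region. A site just beyond the higher-coordinate end of its span on chromosome 12 (57540628 to 57548029, minus strand) was listed with vehicle in both CD24low and CD24high. In CD24low the peaks scored 67 in replicate 2 (percentile 49.5) and 57 in replicate 3 (percentile 23.3), at 57548501 to 57548579, 472 bp from the span and 2390 bp upstream of the nearest start in the RefSeq promoter table. The CD24high peak, at 57548489 to 57548619, scored 93 (percentile 44). The same site lies within Ttc6, the neighbouring tetratricopeptide gene. The other CD24high vehicle-only region lay 4373 bp past the downstream end, at 57536091 to 57536255 (score 97, percentile 46.9). Outside the window, a CD24neg G9ai-only region lay 13194 bp past that end (mean percentile 52.2). A CD24high vehicle-only region lay 15071 bp past it (percentile 69.2).

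Foxa2, the paralogue of Foxa1, had G9ai-only regions and no vehicle-only region within the 10 kb window. The CD24neg region, at 148046859 to 148047009 on chromosome 2, crossed the gene's start at 148046969, in the promoter sequence printed above. Its peaks scored 66 in replicate 2 and 90 in replicate 3 (percentiles 37 and 54.9), and both peaks contained the start. The CD24low region, at 148048574 to 148048732, lay 1605 bp upstream and scored 85 and 55 (percentiles 43.5 and 27.6). The nearest other protein-coding gene, Sstr4, was at least 346645 bp from either region. Outside the window, vehicle-only regions lay downstream of Foxa2 at 12194 bp in CD24neg, 20690 bp in CD24low and 24522 bp in CD24high.

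Klf5 held 5 regions, all inside its span on chromosome 14 (99298691 to 99313412). Of these, 3 were G9ai-only in CD24high, and 0.302% of all protein-coding genes held at least 3. The region nearest a gene end, at 99299222 to 99299418 and 531 bp inside it, scored 101 in replicate 2 and 127 in replicate 3 (percentiles 65.2 and 82.7). The next, at 99305370 to 99305674, scored 108 and 160 (percentiles 70.7 and 93). The last, at 99309713 to 99309854, scored 92 and 102 (percentiles 56.5 and 67). All 6 of these peaks stood in the higher-scoring 50% of their lists. The last place was also G9ai-only in CD24low, at 99309684 to 99309907, with scores of 104 and 94 (percentiles 61.1 and 81.9). The 1 vehicle-only region, at 99307406 to 99307651 in CD24neg (score 103, percentile 60.6), lay between the second and the last of the CD24high regions.

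**Figure D3:**
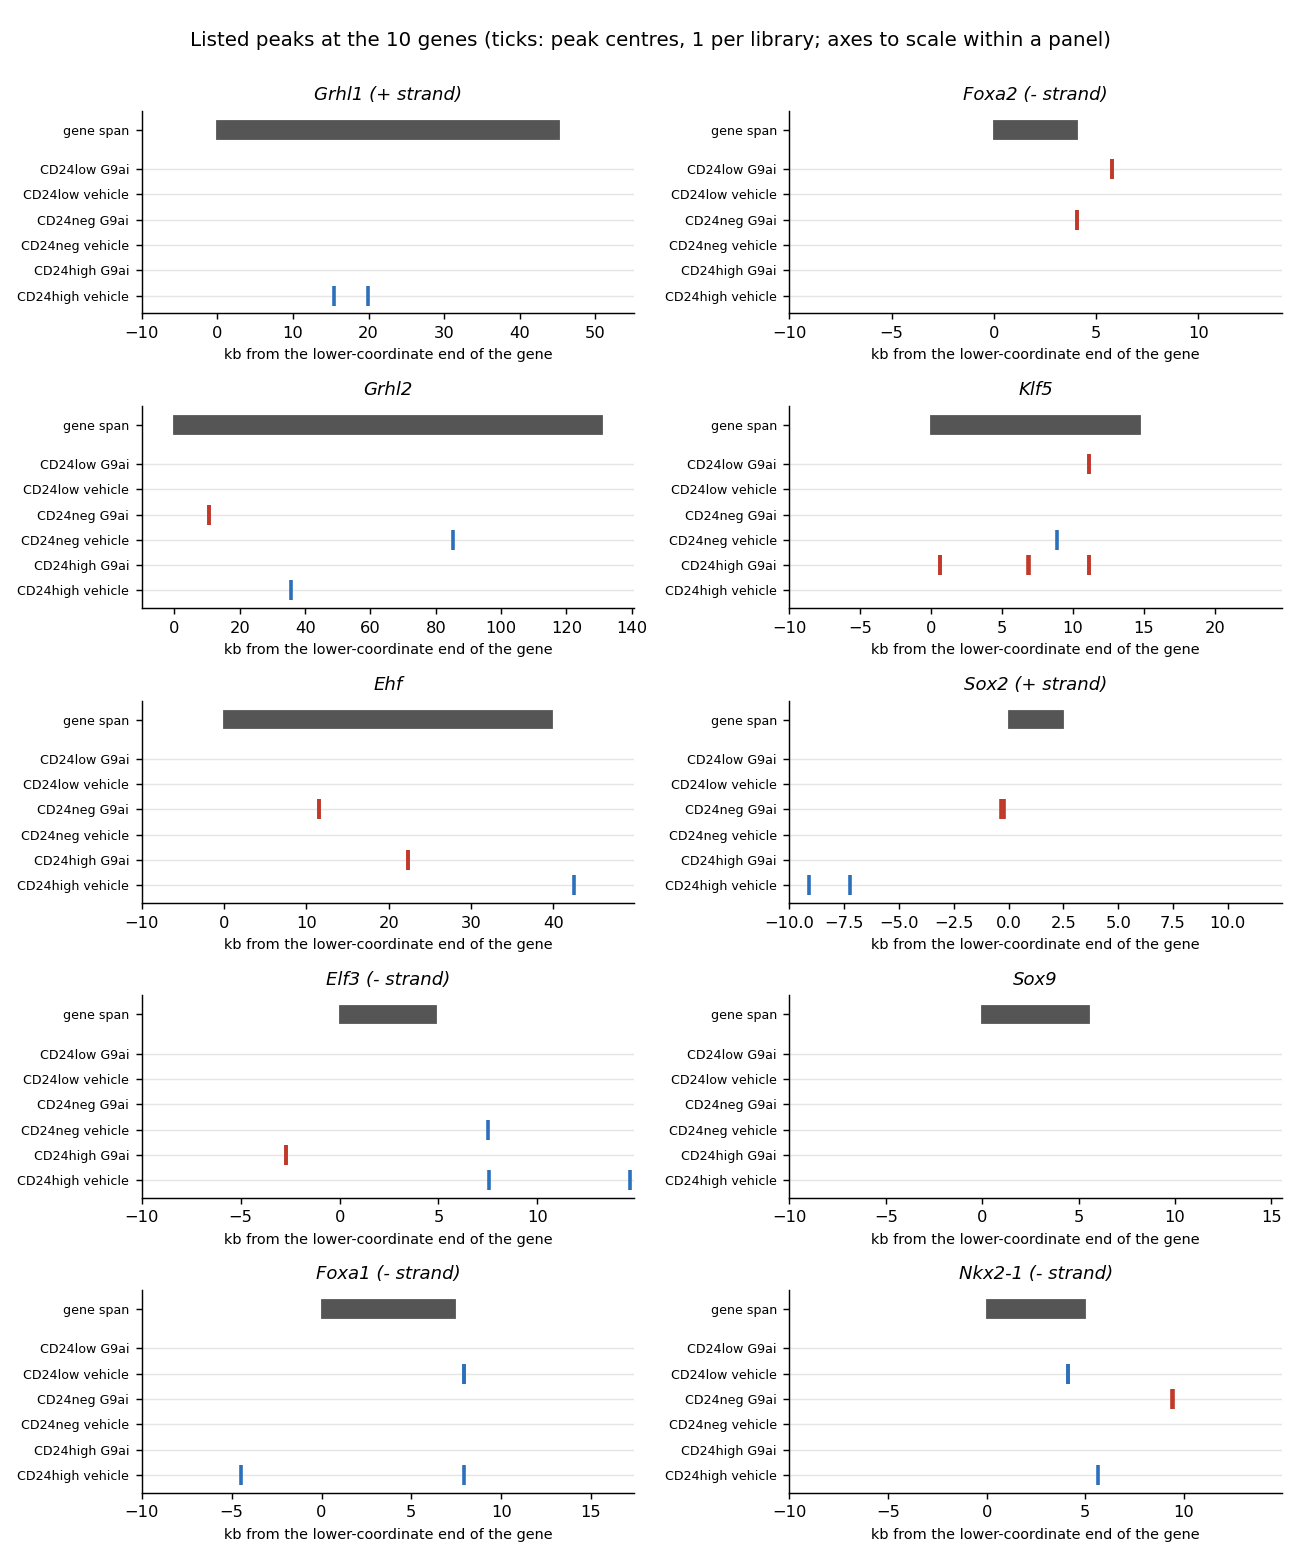
Listed peaks at each gene, by distance in kb from the lower-coordinate end of the gene span (grey bar); each tick is the centre of 1 library's peak, red for G9ai and blue for vehicle, in rows by population and arm, and each panel has its own scale. At Klf5 the CD24low and CD24high G9ai ticks share a place at about 11 kb, and at Elf3 and Foxa1 the vehicle ticks of different populations share a place.

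Sox2 had a G9ai-only region across its start in CD24neg and 2 vehicle-only regions upstream in CD24high. The gene lies on chromosome 3 (34649995 to 34652461, plus strand) within Sox2ot, a long noncoding transcript, and so do all 3 regions. The replicates of the CD24neg region differed greatly. In replicate 3 the peak ran from 34649596 to 34650007, was 412 bp wide, covered the start and scored 372 (percentile 99.2). In replicate 2 it ran from 34649579 to 34649707, was 129 bp wide, ended 288 bp short of the start and scored 50 (percentile 8.66). The peaks shared 112 of the 429 bp they spanned, or 26.1% where the median of 3971 such regions was 67.3%. Their gap of 90.6 percentile points was matched or exceeded in 0.478% of those regions. The high rank of the Sox2 promoter thus rests on 1 library, and the capitals of the Sox2 sequence come from replicate 3 alone. The CD24high vehicle-only regions, at 34642717 to 34642777 and 34640856 to 34640948, scored 55 and 64 (percentiles 9.6 and 18.6) and lay 7218 and 9047 bp upstream.

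Sox9 (chromosome 11, 112782210 to 112787757) had no listed peak in any of the 10 libraries. The nearest region within 25 kb was G9ai-only in CD24low, 23426 bp beyond the higher-coordinate end, at 112811183 to 112811449 and with a mean percentile of 14.1. Since nearly all listed peaks were in 1 arm only, this says nothing of whether the locus was accessible in both.

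Nkx2-1 had low-ranking regions of either kind at 3 different places on chromosome 12 (span 56531935 to 56536908, minus strand). In CD24low a vehicle-only region lay 770 bp inside the start, at 56536033 to 56536138, with scores of 42 in replicate 2 (percentile 2.93) and 59 in replicate 3 (percentile 26.3). In CD24high a vehicle-only region lay 628 bp upstream, at 56537536 to 56537669 (score 89, percentile 41.1). In CD24neg a G9ai-only region lay 4268 bp upstream, at 56541176 to 56541484, with scores of 69 and 57 (percentiles 40.8 and 15.4). All 5 peaks ranked in the lower-scoring 50% of their lists. Both upstream regions overlap the transcript Gm26973.

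The 42 peaks took ranks from near the bottom to near the top of their lists. In CD24high the 5 G9ai peaks of a library had median percentiles of 65.2 and 82.7, and the 11 vehicle peaks 46.9. In CD24neg the 5 G9ai peaks had median percentiles of 40.8 and 54.9, and the 3 vehicle peaks 83.9. The 2 vehicle peaks of each CD24low library had medians of 26.2 and 24.8, and the 2 G9ai peaks 52.3 and 54.8. A median of 50 is what any list has by construction. Of the 14 regions with 2 libraries, Sox2 and Grhl2 in CD24neg had the widest gaps between replicates, 90.6 and 51.9 percentile points, where the medians over all regions of the 4 sets with 2 libraries were 21.9 to 26.2.

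**Figure D4:**
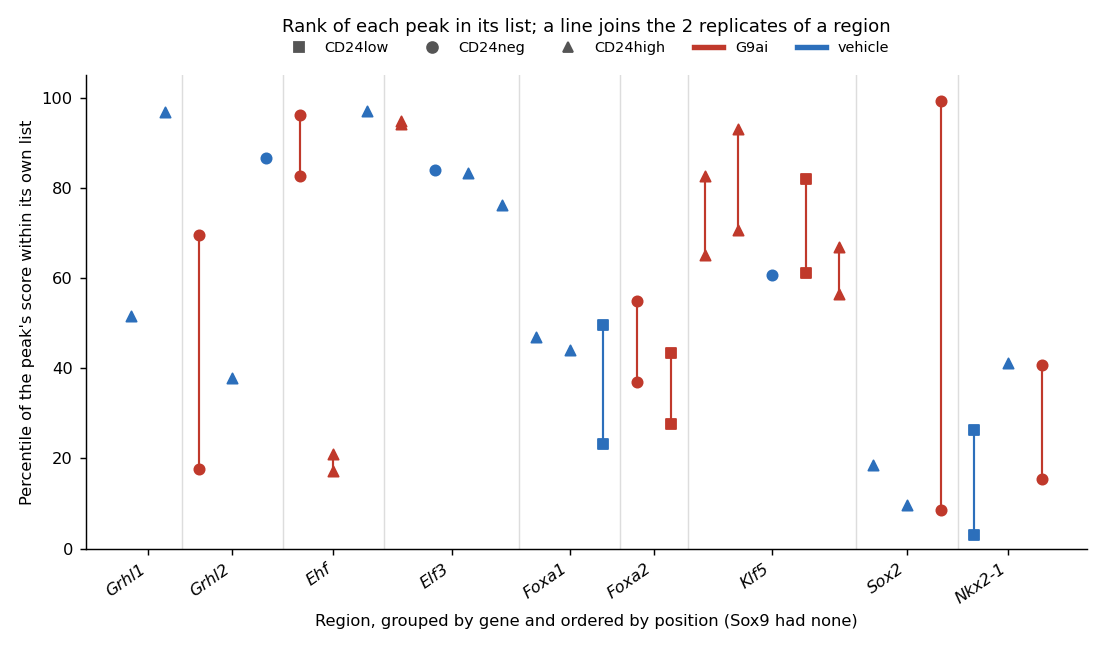
Percentile of each peak's score within its own list (0 to 100), for the 28 regions grouped by gene; squares are CD24low, circles CD24neg and triangles CD24high, red is G9ai and blue vehicle, and a line joins the 2 replicates of a region. The Sox2 region of CD24neg spans 8.66 to 99.2, while the Elf3 region of CD24high has 94.8 and 94.1.

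The position of each kind of region was counted. Of the 12 G9ai-only regions, 9 touched the gene span and 3 lay outside it. Of the 16 vehicle-only regions, 6 touched the span and 10 lay outside. Over all protein-coding genes 64.5% of G9ai-only and 63% of vehicle-only links touched the span. These counts hold several regions of the same gene, such as the 4 G9ai-only regions inside Klf5, and were not tested. They also count the shared sites upstream of Elf3, beside Foxa1 and inside Klf5 once for each population. The shares over all genes were not matched for gene length. A difference in position between the kinds cannot be read from them. At 4 of the 10 genes (Grhl1, Elf3, Foxa1 and Sox2) CD24high had at least 2 vehicle-only regions, as 13.4% of all genes did. That cut equals the highest count among the 10 genes in this set, and the shares were not tested.

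Of the 25 sites, 3 were listed in more than 1 population: those upstream of Elf3, beside Foxa1 and inside Klf5. Each of the 3 was listed in the same arm in both populations. Of the 25523 sites at all protein-coding genes, 3767 (14.8%) were listed in more than 1 population, and 49.6% of these were in 1 arm only. Lists of the same arm and replicate number carry peak names with the same prefix across the 3 populations, which touches all 3 of these sites. The labels do not say whether such libraries came from 1 mouse. The design text gives 3 mice in each arm, and each arm has 3 populations, so libraries of different populations would share mice. A site listed in the same arm in more than 1 population is then no independent repeat.

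Inside the edge of the windows the farthest region was that of Elf3 at 9664 bp, and the nearest left outside was a CD24low G9ai-only region 10549 bp upstream of Sox2, at 34639353 to 34639446 (mean percentile 25.3). Next came a CD24neg G9ai-only region 11034 bp upstream of Grhl1 and a CD24high vehicle-only region 11663 bp downstream of Sox2. Widening the windows to 25 kb took the CD24low regions from 2 to 7 G9ai-only and from 2 to 5 vehicle-only, the former with new regions at Sox2, Nkx2-1, Klf5 and Sox9.

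Other transcription factors of lung and epithelium, 48 in all, held regions in 37 cases (77.1%, against 57.1% of all protein-coding genes). G9ai-only regions lay in 19 of the 48 in CD24low, 12 in CD24neg and 11 in CD24high, where the shares of all genes were 22.4%, 14.9% and 11.3%. Vehicle-only regions lay in 11, 19 and 21 of the 48, where those shares were 10.8%, 26.8% and 35.6%. Foxp1, a forkhead repressor, had 22 regions over a span of 597 kb, with both kinds in all 3 populations. Tead1, the DNA-binding partner of YAP, had 19 over 227 kb, of which 8 were vehicle-only in CD24high. The nuclear factor I genes Nfia and Nfib had 14 over 541 kb and 10 over 217 kb, and the ETS gene Elf1 had 7 over 101 kb. Counts at such long genes are not comparable with those of short ones. The shares of the 48, and of the targets and partners below, were not matched for gene length either. Some relatives of the 10 genes were chosen after their values were seen. Elf5 had 4 vehicle-only regions, 1 in CD24neg and 3 in CD24high, and Grhl3 had 1 vehicle-only region in CD24neg. Foxa3 had 1 G9ai-only region in CD24low and 4 vehicle-only regions in the other populations. Etv5 had 4 vehicle-only regions in CD24neg. Spdef and Klf3 had 2 and 3 G9ai-only regions in CD24low and 1 vehicle-only region each. Klf4, Klf6 and Sox4 also held both kinds. These relatives are examples and give no direction for a family.

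Of 20 known targets and partners of the 10 factors, 17 held a region (85%, beside the 57.1% of all protein-coding genes); Epcam, Esrp2 and Sftpb did not. G9ai-only regions lay in 10 of the 20 in CD24low, 7 in CD24neg and 7 in CD24high, beside 22.4%, 14.9% and 11.3% of all genes. Vehicle-only regions lay in 4, 7 and 10 of the 20, beside 10.8%, 26.8% and 35.6%. Cdh1, which encodes E-cadherin, had 11 regions over 66.9 kb, G9ai-only in all 3 populations (2 in each) and vehicle-only in CD24neg (3) and CD24high (2). The surfactant protein gene Sftpd had 8 regions over 13 kb and the lipid transporter gene Abca3 had 6 over 58.3 kb.

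Markers of cell types in or near the sort gate had listed regions in both arms. Any region was held by 4 of 4 club, 4 of 4 multiciliated, 2 of 4 basal, 3 of 4 alveolar type 1, 4 of 5 alveolar type 2 and 1 of 4 neuroendocrine markers. Of other lineages (Pecam1 and Ptprc are also genes of the sort), 5 of 6 endothelial, 5 of 6 immune and 4 of 5 mesenchymal markers held one. Over all protein-coding genes the share with any region was 57.1%. In CD24low, G9ai-only regions lay at 4 of 4 club, 2 of 4 multiciliated and 3 of 6 endothelial markers, beside 22.4% of all protein-coding genes. Both alveolar lists and the immune, mesenchymal and neuroendocrine lists had 1 such marker each, and the basal list 0. CD24low vehicle-only regions lay at 2 of 4 alveolar type 1 markers, beside 10.8% of all. For these, the alveolar type 2, immune and neuroendocrine lists had 1 marker each, and the others 0. In CD24neg, vehicle-only regions lay at 3 of 6 endothelial, 3 of 6 immune, 3 of 5 alveolar type 2, 2 of 4 multiciliated and 2 of 4 basal markers, beside 26.8%. The mesenchymal and alveolar type 1 lists had 1 such marker each, and the club and neuroendocrine lists 0. In CD24high, vehicle-only regions lay at 4 of 4 multiciliated, 3 of 4 alveolar type 1, 3 of 5 alveolar type 2, 2 of 4 club, 4 of 6 endothelial and 2 of 5 mesenchymal markers, beside 35.6%. The immune list had 1 such marker, and the basal and neuroendocrine lists 0. In CD24neg, G9ai-only regions lay at 2 of 4 club markers, beside 14.9% of all protein-coding genes. The alveolar type 2, basal and multiciliated lists had 1 such marker each, and the others 0. In CD24high, G9ai-only regions lay at 2 of 5 alveolar type 2 markers, beside 11.3%. The club, alveolar type 1 and multiciliated lists had 1 such marker each, and the others 0. In both sets the endothelial, immune and mesenchymal lists were among those with 0. With 4 to 6 genes to a list, each gene moves a share widely, and their part in the regions at the 10 genes was not tested. Of the genes of the sort, Epcam had no listed region, Ly6a (Sca-1) had vehicle-only regions in CD24neg and CD24high, Cd24a had 1 vehicle-only region in CD24high, Pecam1 (CD31) had 4 G9ai-only regions in CD24low and 1 vehicle-only region in each of the other populations, and Ptprc (CD45) had 1 vehicle-only region in CD24neg. Arm-specific lists cannot show whether these markers were accessible in the cells as sorted.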

How the data were processed

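Peaks came from 10 deposited lists in BED format. The submitters' processing notes name FastQC, Bowtie2 and MACS2 and the build mm10. The sources used here give neither their versions nor the read shifting, duplicate handling or calling threshold. Each peak is named after its own library, so calling was per library, per the names in the deposited lists. The score is the authors' peak score as deposited, a whole number whose scale no source here states. It was used only as a mid-rank percentile within a list. No source here states how the authors chose the listed peaks.

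Repeated lines were dropped, and none held a peak at the 10 genes. Coordinates are 1-based. Within a population, peaks sharing 1 bp or more were merged, then linked to a RefSeq gene span plus 10000 bp on either side. The RefSeq table gives no exons, so exons, introns and UTRs were not used here. Strand came from the RefSeq promoter table, which holds 6 of the 10 genes. No genome was used, so peaks outside promoter windows have no sequence here.

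Named were all 10 genes and, of the companion lists of 48 and 20 genes, the 8 with the most regions among 32 listed in the same arm in at least 2 populations, with ties broken by the highest score percentile. Elf5, Grhl3, Foxa3, Etv5, Spdef, Klf3, Klf4, Klf6 and Sox4 were named outside that rule. Members and lists were chosen with earlier results of these data known. Replicates are the labels' numbered samples; the design text gives 3 mice in each arm. Of the 18 samples, 8 were not analysed here. Python 3.11.15, pandas 2.3.3, numpy 2.4.6 and matplotlib 3.10.9 were used, and the calls were tested on simulated data. Alternatives were the window, the overlap, the higher-scoring 50% of peaks, a peak in any library of an arm, and each library left out in turn.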

Additional observations from a re-analysis of the deposited data

Results flagged for a closer look

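At 3 genes every region in one population was of one kind and every region in another population of the opposite kind. The difference between populations was not tested, and the regions lie at different places. The share of all protein-coding genes with such a pattern is not given, so the count cannot be read as particular to these genes. Klf5 had 1 G9ai-only region in CD24low and 3 in CD24high, but 1 vehicle-only region in CD24neg. Sox2 had 1 G9ai-only region in CD24neg and 2 vehicle-only regions in CD24high. Nkx2-1 had 1 G9ai-only region in CD24neg, 1 vehicle-only region in CD24low and 1 in CD24high. For Nkx2-1 this holds within the 10 kb window only. Farther out it also had G9ai-only regions, 11762 bp away in CD24high and 12038 and 17759 bp away in CD24low. With the gene span plus 1000 bp, Sox2 lost its CD24high vehicle-only regions and Nkx2-1 its CD24neg G9ai-only region. With the higher-scoring 50% of each list, Sox2 and Nkx2-1 kept none of the regions counted here. The vehicle side of CD24neg and of CD24high is 1 library.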

How the results depend on the processing

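No paired analysis was possible because no result comes from a test, and the labels do not tie a replicate number to a mouse, litter or day. Requiring an overlap of 50% of the narrower peak kept all 6 region counts within 1.5 times of the main ones. Accepting a peak in any library of an arm and leaving out each library in turn did so too. These last alternatives could hardly have moved a count and are no support, since 98.2% to 99.6% of listed peaks overlapped the replicate list. The lone vehicle libraries of CD24neg and CD24high could not be left out. With the gene span plus 1000 bp, CD24low G9ai-only regions went from 2 to 1 and CD24high vehicle-only regions from 11 to 5. With the gene span plus 25000 bp, CD24low went from 2 to 7 G9ai-only and from 2 to 5 vehicle-only, and CD24neg vehicle-only from 3 to 5. With the higher-scoring 50% of each list, CD24low G9ai-only went from 2 to 1 and vehicle-only from 2 to 0, CD24neg G9ai-only from 5 to 1 and CD24high vehicle-only from 11 to 5. Counts of genes with a region moved with them: CD24high vehicle-only from 7 to 4 with the span plus 1000 bp and to 3 with the higher-scoring 50%. These alternatives use fewer or more peaks by construction, and the shares of all protein-coding genes under them are not given. Depth is unknown, so no count carries an interval.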
